A study of Homo sapiens with 47 samples.

Results

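Cell lines of one tumour type can differ in the sites that are open. The regions described here were autosomal sites called open in every 451Lu library of the series and in no library of WM983B. 451Lu and WM983B are human melanoma lines. Peaks of the 20 ATAC-seq lists that overlapped by any length were joined, which gave 203319 union regions on the 22 autosomes, and a region was kept when all 16 libraries of 451Lu and none of the 4 libraries of WM983B had a peak in it. This left 470 regions, which is 0.231% of the union regions and 1.82% of the 25772 regions called in all 16 libraries of 451Lu. They are called the 451Lu-only regions below. They were chosen by these ATAC-seq calls, so their presence in 451Lu and absence in WM983B is a description and not a result.

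ATAC-seq marks open chromatin by the places where the transposase Tn5 can insert into DNA, and open sites are for the most part promoters and enhancers. H3K27ac is an acetyl mark on histone H3 found at active promoters and enhancers, so an open site can carry it or lack it. H3K9me3 is a methyl mark of heterochromatin, the compact and mostly silent part of the genome. Enhancers differ between cell lines of one tumour type more than promoters do, and a site can also be missing from a line because the DNA itself was lost.

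The series held 47 samples, of which 32 had a file used here: 20 ATAC-seq, 4 H3K27ac and 8 H3K9me3 lists. The ATAC-seq groups, with 2 libraries each, were vemurafenib-resistant and parental cells of 451Lu, vemurafenib-resistant and parental cells of WM983B, and 6 engineered groups of 451Lu. Vemurafenib inhibits the BRAF kinase. The engineered groups were shp150_AP1 cells, with a short hairpin RNA against p150 and forced expression of c-JUN and c-FOS, the subunits of the transcription factor AP-1, against vector_NT control cells. AP1 cells, with c-JUN and c-FOS alone, stood against vector cells, and shp150 cells, with the hairpin alone, stood against NT control cells. H3K27ac was listed for 1 library each of resistant and parental 451Lu and of resistant and parental WM983B. H3K9me3 was listed for 2 libraries each of resistant, parental, shp150_AP1 and vector_NT 451Lu, and for none of WM983B among the files used. Nothing in the sources used here says whether resistant cells were kept in the drug or whether a line or its resistant form was 1 clone. The labels do not state whether replicates were separate cultures, and differences between replicates may be technical only.

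The 451Lu ATAC-seq lists held between 41829 peaks in a shp150 library and 91970 peaks in a resistant library on the autosomes, and the WM983B lists held between 126086 and 144329. The smallest peak score was between 2.0 and 2.04 in the 451Lu lists, against 1.3 to 1.32 in the WM983B lists. The narrowest peak was 200 bp in 451Lu lists, against 82 to 88 bp in WM983B lists. By these values the lists of the lines were not made with the same settings. The WM983B lists are longer and reach lower scores, but their peaks are narrower. Their median peak width was 170 to 190 bp, against 365 to 479 bp in the 451Lu lists. The joint effect of length, score limit and width on the absence of a WM983B peak was not tested. Peak lists carry no read depth, which is unknown here. Coordinates are those of hg19, the build named in the submitters' processing notes, and no gene is assigned to a region because no annotation of that build was used.

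The 451Lu-only regions were of moderate strength. Their median width was 846.5 bp, with quartiles of 708.5 and 1021.75 bp, against 993 bp for the 23851 regions called in all 20 libraries. The median over regions of the median peak score, which is the authors' own value per peak, was 16.7, against 23.1 in the regions shared by all libraries. Within each library the peak scores of the 25772 regions constant in 451Lu were turned into percentiles, and the 451Lu-only regions had a median mean percentile of 31.8, against 49.7 in the shared regions. For regions constant in 451Lu and called in 1, 2 and 3 WM983B libraries the median mean percentile was 33.4, 34.4 and 36.9. Among the 451Lu-only regions the lowest score over the 16 libraries of 451Lu ran from 2.0, the floor of the lists, up to 67.2.

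The rule has an edge on each side. Another 243 regions constant in 451Lu were called in 1 WM983B library, and the score of that single WM983B peak had a median of 3.75 and ran from 1.33 to 12.1. Of these single calls, 77 came from parental replicate 1, 76 from resistant replicate 1, 44 from parental replicate 2 and 46 from resistant replicate 2. On the other edge, 288 regions without a WM983B peak were missed by 1 library of 451Lu, and in 170 of them that library was one of the shp150 libraries, which had the shortest lists. The 9609 regions called in all 4 libraries of WM983B and in none of 451Lu outnumbered the 451Lu-only regions, and the WM983B lists were the longer ones.

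Most of the 451Lu-only regions lay within 10 kb of a WM983B peak. The nearest WM983B peak lay at a median distance of 6771 bp from a 451Lu-only region, with quartiles of 2738 and 16680 bp and a range of 63 to 216339 bp. Of the 470 regions, 34 (7.23%) lay within 1 kb of a WM983B peak, 293 (62.3%) within 10 kb and 442 (94.0%) within 50 kb. For the 288 regions missed by 1 library of 451Lu the median distance was 6377.5 bp. These distances rest on the long WM983B lists that the rule used. The share of other autosomal positions this close to a WM983B peak was not measured. The 451Lu-only regions sat in slightly sparser surroundings than shared regions, with a median of 11 regions constant in 451Lu within 500 kb, against 14. Regions called in 1, 2 and 3 WM983B libraries had medians of 11, 11 and 12, so this was not particular to the 451Lu-only regions.

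Among the 10 regions with the highest lowest score, the strongest lay on chromosome 1, 567404 to 567764. Its peak score was 67.2 and 79.0 in resistant cells, against 97.5 and 79.4 in parental cells. Over all 16 libraries of 451Lu the lowest, median and highest score were 67.2, 82.3 and 110. The resistant and parental groups overlapped in percentile at this region, and it carried H3K27ac in none of the 4 lists. Like 3 others of the 10, it lay under an H3K9me3 island in all 8 lists, and its islands held 266 to 885 input reads against 52 to 247 ChIP reads. Their fold of ChIP over input was 0.233 to 0.587, against library medians of 1.69 to 2.21 over all islands. Their input density was 132 to 727 reads per kb, against library medians of 25.5 to 35.5. This site thus had a high input level and a fold below 1, and the part of the input level in the ATAC-seq peak was not tested. No filter for sites of artefact signal was applied here, so this peak may not mark a site that is open in 451Lu alone.

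The region on chromosome 2, 42441808 to 42442568, had scores of 36.4 and 50.5 in resistant cells, against 70.3 and 81.7 in parental cells. Both resistant values lay below both parental values. H3K27ac was listed here in parental 451Lu alone, with a peak score of 15.8. A region on chromosome 12, 13880524 to 13881434, behaved alike, at 40.9 and 44.6 in resistant cells, against 76.9 and 88.6 in parental cells. In shp150_AP1 cells its scores were 53.5 and 50.3, against 64.7 and 79.96 in vector_NT cells, which again did not overlap. It carried a weak H3K27ac peak, with a score of 2.63, in parental 451Lu and none in the other lists.

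A few strong regions kept their level or gained it. On chromosome 3, 64192870 to 64194052, the score was 81.2 in both resistant libraries, against 75.9 and 81.0 in parental libraries, and the resistant percentiles lay above the parental ones. This region carried strong H3K27ac in both 451Lu lists, with scores of 66.8 in resistant cells and 50.03 in parental cells, and none in WM983B. It lay under an H3K9me3 island in all 8 lists. The 1 Mb window around it had 5.68 times the input density of the median window, a measure described below. On chromosome 4, 133148293 to 133149307, scores were 63.4 and 70.6 in resistant cells, against 54.6 and 66.1 in parental cells, with no H3K27ac in any list. The nearest WM983B peak was 46753 bp away.

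Chromosome 3, 65946822 to 65948101, joined several patterns at 1 site. The ATAC-seq score was 57.4 and 62.7 in resistant cells, against 96.9 and 108 in parental cells. Its H3K27ac score was 9.66 in resistant 451Lu, against 150 in parental 451Lu, and a WM983B peak of score 8.63 was listed in parental cells and none in resistant cells. The nearest WM983B ATAC-seq peak was 1434 bp away, so the acetylation in WM983B overlapped the region while the accessibility there stayed without a call.

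The other 4 of the 10 regions lay on chromosome 3, 62704190 to 62705107, on chromosome 13, 52495699 to 52496697 and 65453763 to 65454998, and on chromosome 20, 51026541 to 51027618. None of these 4 carried H3K27ac in any list. At each of them both resistant percentiles lay below both parental ones. An example is chromosome 13, 65453763 to 65454998, at 43.6 and 49.8 in resistant cells, against 74.2 and 75.6 in parental cells. Over the 10 regions, 7 were lower and 2 higher in resistant than in parental cells, and 4 carried H3K27ac in parental 451Lu. 3 of the 10 lay on chromosome 3, each under an H3K9me3 island in all 8 lists. Their 1 Mb windows had 4.53 to 5.68 times the input density of the median window. The part of the input level in their ATAC-seq and H3K27ac scores was not tested.

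H3K27ac was not used to choose the regions, and it followed the cell line. Of the 470 regions, 58 (12.3%) overlapped an H3K27ac peak in resistant 451Lu and 106 (22.6%) in parental 451Lu. In WM983B, 2 (0.426%) did in resistant and 7 (1.49%) in parental cells. Over the 25772 regions constant in 451Lu, the shares were 42.2% in resistant 451Lu, 37.9% in parental 451Lu, 36.9% in resistant WM983B and 39.3% in parental WM983B. Over all 203319 union regions, whose median width was 353 bp, they were 9.35% in resistant and 7.47% in parental 451Lu. In WM983B the union shares were 8.40% in resistant and 9.40% in parental cells. The exact 95% binomial intervals of the 451Lu-only shares, which cover counting error only, were 9.51 to 15.7% in resistant 451Lu and 18.9 to 26.6% in parental 451Lu. In resistant WM983B the interval was 0.0516 to 1.53% and in parental WM983B 0.601 to 3.04%. Averaged over its lists, 451Lu had 17.4% of the regions marked, against 0.957% in WM983B. With 2 lists against 2, the smallest p that an exact two-sided permutation test allows is 0.33, so no test over lists could pass 0.05. Each group gave 1 list, so the spread between replicates is unknown for this mark. The 451Lu lists are both replicate 1 and the WM983B lists both replicate 2, so the line and the replicate number cannot be told apart.

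**Figure D1:**
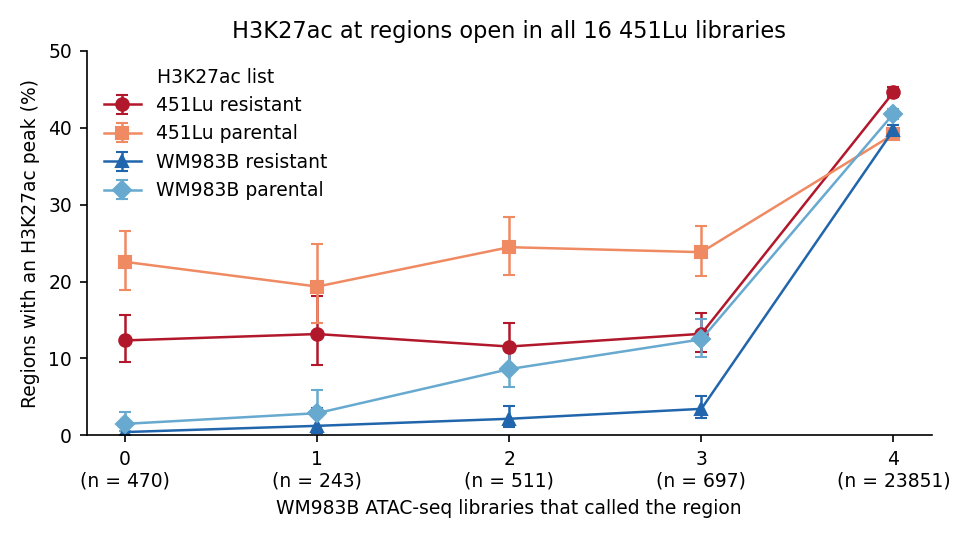
Share of regions with an H3K27ac peak (y axis, percent, with exact 95% binomial intervals) among regions open in all 16 libraries of 451Lu, by the number of WM983B ATAC-seq libraries that called them (x axis), for the 4 H3K27ac lists. The 451Lu-only regions stand at 0 on the x axis, where the 451Lu lists mark 12.3% and 22.6% of them and the WM983B lists 0.426% and 1.49%.

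Most of the 451Lu-only regions carried no H3K27ac: 345 (73.4%) overlapped no peak in either 451Lu list, against 49.7% of the regions constant in 451Lu. Over all union regions 88.7% overlapped none, so the 451Lu-only regions lay between these sets. Both 451Lu lists marked 39 regions (8.30%), against 29.9% of the regions constant in 451Lu and 5.56% of all union regions. Resistant cells alone marked 19 (4.04%), against a background of 12.4%, while parental cells alone marked 67 (14.3%), against a background of 8.08%. The resistant list held 50948 peaks and the parental list 31807. With both cut to their 31807 best peaks, 12 regions (2.55%) were marked in resistant cells alone and 75 (15.96%) in parental cells alone, against 7.48% and 10.8% of the regions constant in 451Lu. At equal length parental-only acetylation was thus the more frequent kind in both sets, by a wider margin in the 451Lu-only regions.

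The shares with H3K27ac were also compared at like strength of the ATAC-seq peak. The regions were split into 5 bins of mean percentile. In the lowest bin, 6.82% of 132 451Lu-only regions were marked in resistant and 13.6% in parental 451Lu, against 34.5% and 26.3% of the shared regions. In the highest bin, 4 of 28 (14.3%) were marked in resistant and 12 (42.9%) in parental cells, against 50.6% and 54.1% of the shared regions. In each of the 5 bins, each 451Lu list marked a smaller share of the 451Lu-only regions than of the shared regions. The highest bin is small, and the differences within bins were not tested.

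In WM983B the mark was close to absent at these regions. Both WM983B lists marked 1 region (0.213%), against 29.5% of the regions constant in 451Lu. That region, on chromosome 2, 232107878 to 232108709, carried the mark in all 4 lists, with peak scores of 30.5 in resistant and 40.3 in parental 451Lu, and 3.27 in resistant and 5.63 in parental WM983B. In total 8 regions carried WM983B H3K27ac in some list, and all 8 carried it in 451Lu too. Widening the search to 1 kb on either side raised the shares to 22.3% in resistant and 35.3% in parental 451Lu, and to 2.55% in resistant and 5.32% in parental WM983B. Over the regions constant in 451Lu the shares within 1 kb were 54.3% and 46.8% in resistant and parental 451Lu, and 46.9% and 52.5% in resistant and parental WM983B.

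Regions that a few WM983B libraries did call looked like the 451Lu-only regions in the 451Lu lists. Both 451Lu lists marked 8.64% of regions called in 1 WM983B library, 9.39% of those called in 2 and 9.33% of those called in 3. Among regions called in all 4 the share was 31.6%. Resistant cells alone marked 11, 11 and 27 of the regions called in 1, 2 and 3 WM983B libraries, against 26, 77 and 101 marked in parental cells alone. Set against all regions constant in 451Lu, acetylation was thus low and parental-leaning in each class that lacked a call in some WM983B library. It was not particular to the regions without any.

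Accessibility of the 451Lu-only regions was lower in resistant than in parental 451Lu. The median percentile of the 470 regions was 23.3 and 23.6 in the resistant libraries, against 36.6 and 36.9 in the parental libraries. Both resistant libraries lay below both parental libraries at 245 regions (52.1%), against 26.5% of the regions constant in 451Lu. At 76 regions (16.2%) both lay above, against 26.9%. The median difference was -6.86 percentile points, against 0.185 over the regions constant in 451Lu, and over the 4 pairings of a resistant with a parental library it ran from -8.67 to -6.13. In bulk libraries, a region open in fewer cells and a region less open in every cell cannot be told apart.

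The cells with the hairpin and AP-1 together showed a smaller difference of the same sign. The median percentile was 28.7 and 25.7 in shp150_AP1 libraries, against 36.0 and 39.3 in vector_NT libraries. Both shp150_AP1 libraries lay below both controls at 194 regions (41.3%), against a background of 23.5%. They lay above them at 67 regions (14.3%), against a background of 24.8%. The median difference was -4.51 points, against 0.387 over the regions constant in 451Lu. At 137 regions both contrasts were lower, which is 55.9% of those lower in resistant cells and 70.6% of those lower in shp150_AP1 cells. Over all regions constant in 451Lu the shares were 41.5% and 46.7%. These overlaps also rise with the share of regions lower in each contrast by itself. That share was 52.1% and 41.3% in the 451Lu-only regions, against 26.5% and 23.5% in the regions constant in 451Lu. Overlap beyond these shares was not tested. The contrasts share no library.

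With either change alone, the shares stood near their backgrounds and the median percentiles lay slightly above the controls. In AP1 cells the median percentile was 34.5 and 36.8, against 31.2 and 30.8 in vector cells. AP1 libraries lay above vector libraries at 89 regions (18.9%), against a background of 17.8%, and below them at 75 (15.96%), against a background of 17.8%. In shp150 cells the median percentile was 32.1 and 30.9, against 30.0 and 29.8 in NT cells. These libraries lay above NT at 102 regions (21.7%), against a background of 18.7%, and below at 77 (16.4%), against a background of 18.4%. The single-change lists were shorter, and the difference between the single and the combined contrasts was not tested.

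**Figure D2:**
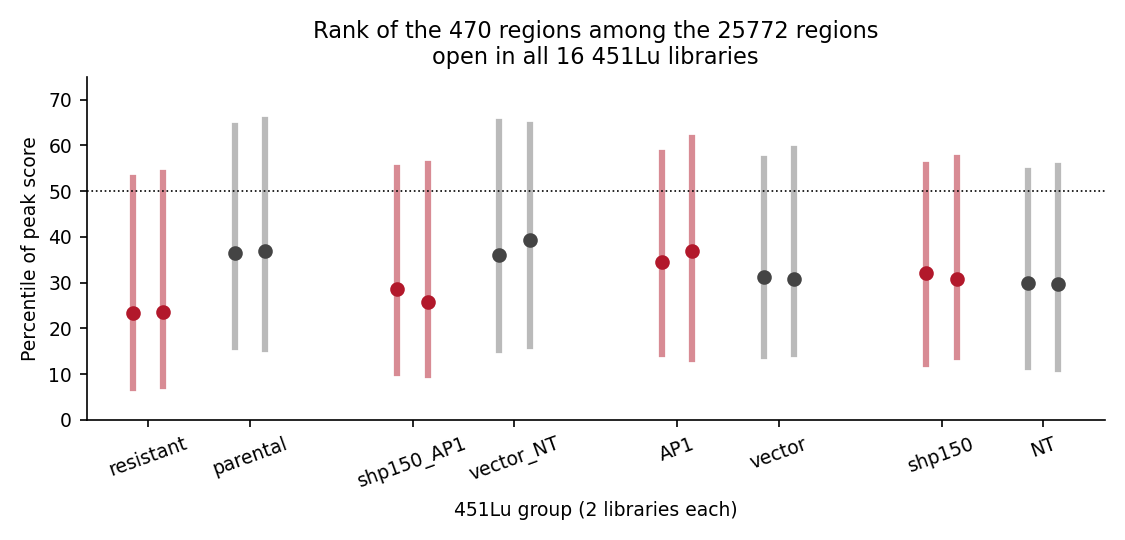
Percentile of peak score (y axis) of the 470 451Lu-only regions among the 25772 regions open in all 16 libraries of 451Lu, for 8 groups of 2 libraries (x axis); points are medians, bars run from the lower to the upper quartile, and the dotted line marks 50. The resistant libraries, at 23.3 and 23.6, lie below the parental ones, at 36.6 and 36.9, and the shp150_AP1 libraries lie below the vector_NT ones.

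A lower level in resistant cells was found among weak and strong regions. In the lowest bin of mean percentile 59 of 132 451Lu-only regions (44.7%) were lower, against 19.8% of the shared regions. In the highest bin 17 of 28 (60.7%) were, against 26.6%. The part of peak strength was not tested. Regions lower in resistant cells outnumbered the higher ones on 20 of 22 chromosomes, and on 21 the share was above that of the regions constant in 451Lu. Regions called in 1, 2 or 3 WM983B libraries had shares of 49.0%, 56.4% and 48.2%, so this too was not particular to the regions without any WM983B call. By H3K27ac, 44 of the 67 regions marked in parental cells alone (65.7%) were lower in resistant cells. So were 5 of the 19 marked in resistant cells alone (26.3%) and 13 of the 39 marked in both (33.3%). Over all regions constant in 451Lu these shares were 45.0%, 14.6% and 20.2%. Of the 345 regions with no H3K27ac in either 451Lu list, 183 (53.0%) were lower, against 30.2% of the regions constant in 451Lu without it. The share lower was thus above its background in each H3K27ac class, and each condition had 1 H3K27ac list.

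The 451Lu-only regions lay on every autosome, and the share of the regions constant in 451Lu that they made up ran from 0.666% to 2.75%. The highest shares were on chromosome 13, with 19 of 691 regions (2.75%), chromosome 3, with 48 of 1851 (2.59%), and chromosome 18, with 10 of 395 (2.53%). The lowest were on chromosome 19, with 5 of 751 (0.666%), chromosome 1, with 21 of 2410 (0.871%), and chromosome 9, with 11 of 908 (1.21%). The exact 95% intervals of chromosome 1, at 0.540 to 1.33%, and chromosome 19, at 0.217 to 1.55%, lay below the 1.82% of all autosomes, and that of chromosome 3, at 1.92 to 3.42%, lay above it. The intervals of the other chromosomes held that value. The intervals treat neighbouring regions as independent.

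**Figure D3:**
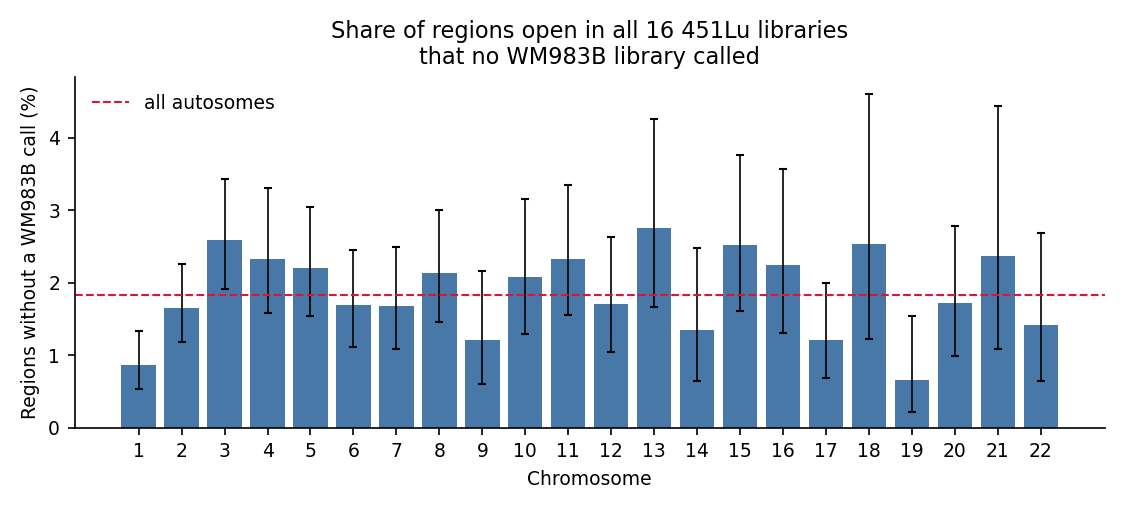
Share of regions open in all 16 libraries of 451Lu that no WM983B library called (y axis, percent) by chromosome (x axis), with exact 95% binomial intervals. The dashed line is the 1.82% of all autosomes; chromosomes 1 and 19 lie lowest and chromosome 13 highest.

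A lost stretch of DNA in WM983B would remove neighbouring regions together, so runs were counted along the regions constant in 451Lu. Of the 470 regions, 398 (84.7%) had no 451Lu-only region next to them in that order. There were 25 pairs, 6 runs of 3 and 1 run of 4. The run of 4, on chromosome 2 from 115520246 to 115687231, spanned 167 kb and held 2 WM983B ATAC-seq peaks between its members. It held 1 H3K27ac peak in resistant and 4 in parental 451Lu, against none in either WM983B list.

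Of the 7 runs of 3 or more, 1 had no WM983B peak inside. This was the run on chromosome 3 from 36421549 to 36536549, within a stretch of 178 kb without WM983B peaks from 36404653 to 36582555. The stretch held 10 regions called in some 451Lu library, counting those that reach over its edges. H3K27ac was listed there 1 time in resistant and 3 times in parental 451Lu, and not in either WM983B list. Its members were weak and moved in different directions. The first, 36421549 to 36422545, scored 20.3 and 21.3 in resistant cells, against 12.8 and 11.4 in parental cells. The second, 36534474 to 36534917, scored 6.12 and 4.91 in resistant cells, against 9.27 and 13.0 in parental cells. The last, 36535913 to 36536549, scored 20.1 and 24.8 in resistant cells, against 21.0 and 23.8 in parental cells, and overlapped.

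**Figure D4:**
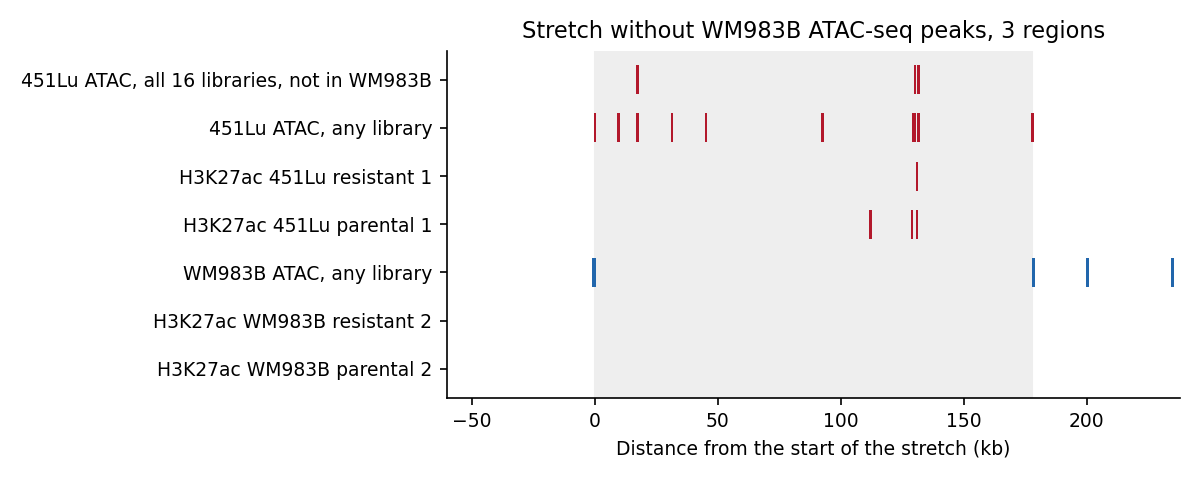
Map of the stretch on chromosome 3 without WM983B ATAC-seq peaks that holds 3 of the 451Lu-only regions; the x axis is the distance in kb from its start, each bar is a peak or region (drawn at least 1 kb wide) and the shaded part is the stretch of 178 kb. The 451Lu tracks hold peaks within it and the WM983B tracks hold none, and WM983B ATAC-seq peaks resume at its edges.

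Few gaps in the WM983B lists held several of the regions. Stretches free of WM983B peaks held 2 or more 451Lu-only regions in 16 places and 3 in 1 place, and those 16 stretches were 32.0 to 516 kb long. Together they held 33 (7.02%) of the 470 regions. In the mirrored count, 119 stretches free of 451Lu peaks held 3 or more of the 9609 regions constant in WM983B, with up to 6 in 1 stretch. The second of the 16, on chromosome 11 from 102980283 to 103495870, was 516 kb long and held 20 regions called in some 451Lu library. One with 449 kb, on chromosome 10 from 130991706 to 131440892, held only 2 such regions. Of the 16 stretches, 13 held 451Lu H3K27ac peaks and 1 held WM983B H3K27ac peaks. Whether WM983B lost DNA in any of them was not tested, since no WM983B input list was among the files used.

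The members of these long stretches were of low to middling strength. On chromosome 11, 103196621 to 103197479 had a lowest score of 3.63 and lay 216339 bp from the nearest WM983B peak, the largest distance among the 470 regions, and 103479991 to 103480613 had a lowest score of 6.35. On chromosome 10, 131264729 to 131266150 had a lowest score of 6.72 and 131395798 to 131396464 one of 7.04.

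The 451Lu-only regions were also counted in windows. Of 1997 windows of 1 Mb with at least 5 regions constant in 451Lu, 325 held a 451Lu-only region and 4 had a share of 50% or more. Each of those 4 windows overlapped one of the 16 stretches. Windows and stretches were both picked by the same calls, so this overlap is a description and not a result. The share of other windows that overlapped a stretch was not measured. Chromosome 2 at 115000001 to 116000000 had the highest share, with 4 of 6. Chromosome 3 at 62000001 to 63000000 had the highest number, with 7 of 22. The interval from 102000001 to 104000000 on chromosome 11, chosen after its values were seen for its long gaps without WM983B peaks, held 6 of 15 regions constant in 451Lu. There 32 of 56 regions called in 8 or more libraries of 451Lu had no WM983B call, against 7.27% of such regions over all autosomes, and the choice of the interval favours this. Another 69 regions there did have a WM983B call. H3K27ac was listed 34 times in resistant and 19 times in parental 451Lu, against 9 times in resistant and 10 times in parental WM983B.

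Chromosome 3 carried a second kind of feature. The H3K9me3 files list input reads per island, and these give a measure of how much DNA of 451Lu was sequenced per kb. No sample is labelled as the input of shp150_AP1 replicate 1. The input behind that list is thus unknown, and the 8 lists may not be 8 separate input measurements. In windows of 1 Mb from 60 to 75 Mb the median input density over lists was 3.89 to 6.08 times that of the median window, and from 69 to 74 Mb of chromosome 11 it was 3.17 to 3.65 times. The block on chromosome 3 held 24 of the 451Lu-only regions among 280 regions constant in 451Lu (8.57%), and that on chromosome 11 held 6 of 128 (4.69%). Over 1722 windows with enough islands, 40 had at least 2 times the median input. These held 33 of the 349 451Lu-only regions with a value (9.46%), against 3.15% of the regions constant in 451Lu. Of regions called in 1, 2 and 3 WM983B libraries they held 6.11%, 7.55% and 7.27%, and of those called in all 4 they held 2.75%. A raised share was thus not particular to the regions without any WM983B call. The chromosome 3 block also held 458 regions called in all 4 WM983B libraries, so it was not closed in that line. The number of DNA copies in either line was not measured, and the part of the input level in the calls was not tested.

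The results on accessibility and acetylation were about as large outside the windows of high input. Outside them, 233 of 437 regions (53.3%) were lower in resistant than in parental cells, against 26.4% of the regions constant in 451Lu there. Inside, 12 of 33 (36.4%) were lower and 13 (39.4%) higher, against 27.6% and 35.5% of the regions constant in 451Lu. Outside them, 51 regions (11.7%) carried H3K27ac in resistant and 97 (22.2%) in parental 451Lu, against 42.2% and 37.9% of the regions constant in 451Lu. In the chromosome 3 block 8 of 24 regions were lower and 11 higher in resistant cells.

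A larger share of the 451Lu-only regions than of all regions constant in 451Lu lay under H3K9me3 islands. In the resistant lists 21.1% and 19.1% of them lay under an island, against backgrounds of 8.78% and 7.17%. In the parental lists 17.02% and 15.1% did, against 6.66% and 6.36%. The shp150_AP1 lists covered 16.4% and 17.4%, against 5.44% and 6.24%, and the vector_NT lists 16.6% and 17.7%, against 6.76% and 6.65%. With islands at a false discovery rate under 0.01, the shares were 9.36 to 13.2%, against 3.36 to 5.10% of the shared regions. Over all union regions the shares per list were 7.41 to 10.6% with every island and 5.73 to 9.32% under that limit. Against all union regions the excess was thus smaller, and under the limit parental replicate 2 came near, at 9.36% against 8.06%. Counting every island, both resistant lists covered more of the regions than both parental lists, and they did so for the regions constant in 451Lu as well. Under the false discovery rate limit the resistant lists covered 13.2% and 11.9% of the 451Lu-only regions, against 11.7% and 9.36% in the parental lists. For the regions constant in 451Lu that limit turned the order round, at 4.58% and 3.99% in the resistant lists, against 5.18% and 5.16% in the parental lists. Regions called in 1 to 3 WM983B libraries also lay under islands more than the background, at 10.2 to 16.9% per list and class, so this was not particular to the regions without any WM983B call.

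**Figure D5:**
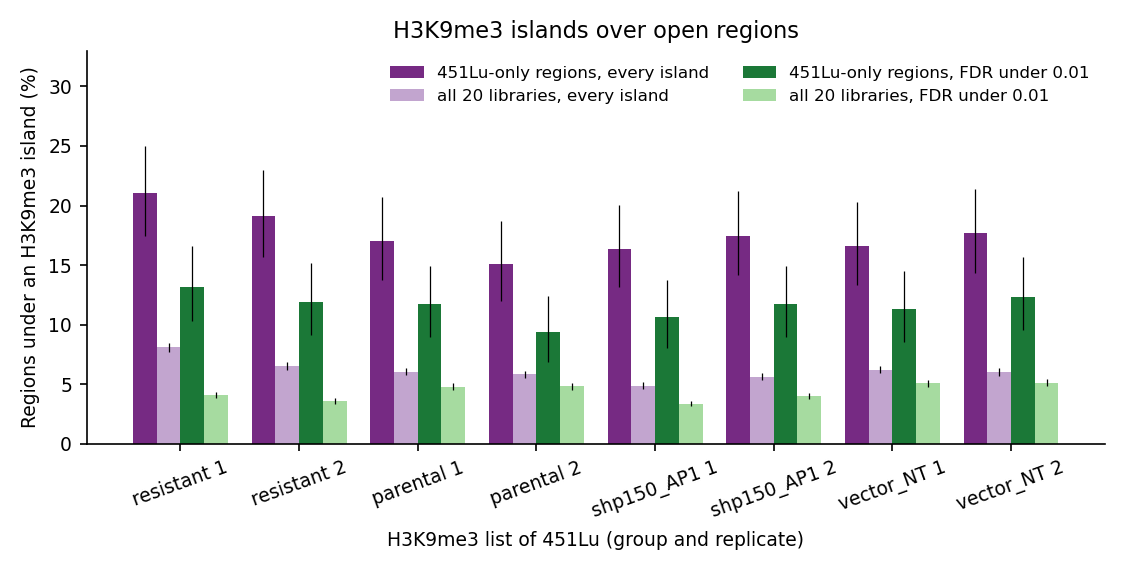
Share of regions under an H3K9me3 island (y axis, percent, with exact 95% binomial intervals) in the 8 lists of 451Lu (x axis), for the 451Lu-only regions and for regions called in all 20 libraries, with every listed island and with islands at a false discovery rate under 0.01. In all 8 lists and at both settings the 451Lu-only regions have the higher share.

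An island in this list is not the same as enrichment, and a part of the overlap moved with the input. All 8 lists covered 41 regions (8.72%), against 2.18% of the regions constant in 451Lu, and none covered 328 (69.8%). Of the 41, 26 lay in the windows of high input, and the fold of ChIP over input was over 1 at 18 to 27 of the 41, depending on the list. Outside those windows 15 of 437 regions (3.43%) were covered in all 8 lists, against 0.964% of the regions constant in 451Lu. Outside them the share per list was 9.38 to 15.1%, against 3.92 to 7.07%, and with a false discovery rate under 0.01 it was 8.24 to 12.8%, against 3.32 to 5.05%. H3K27ac and H3K9me3 islands met at some regions: of the 41, 7 (17.1%) carried H3K27ac in resistant and 12 (29.3%) in parental 451Lu. Among shared regions under islands in all 8 lists the shares were 47.6% and 41.1%. Among 451Lu-only regions under no island they were 10.7% and 19.2%.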

How the data were processed

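The ATAC-seq and H3K27ac lists give 1 library's peaks each, with a score per peak from the authors' peak caller, per the deposited files. The H3K9me3 lists give islands per library, with the deposited count of ChIP reads and of input reads, a p-value and false discovery rate, and the fold (ratio) of ChIP over input, as the authors listed them. Per the submitters' processing notes, the build was hg19 and the tools were deepTools, STAR 2.5.3, SICER, MACS2, Picard and Bowtie2. Which of them made which list is not given in the sources used here, nor is a Tn5 shift of reads. Depth per sample is unknown for peak lists, so intervals cover counting error over regions only.

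Peaks on the 22 autosomes were merged, and at least 1 bp of overlap counted as a call. Scores were ranked within each library over the regions called in all 16 libraries of 451Lu. A region was lower in a group when both of its libraries ranked below both libraries of the other, with no model fitted. Input density came from 1 Mb windows with at least 20 kb of islands in every list, relative to the median window. A window of high input had at least 2 times that median. The interval code was tested on simulated data. Python 3.11.15, numpy 2.4.6, pandas 2.3.3 and SciPy 1.17.1 were used.

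The regions, lists and tests were chosen with earlier results of these data known. Named regions were the 10 with the highest lowest score in 451Lu, the 10 stretches with most members, the region with H3K27ac in all 4 lists and the chromosomes at either end of the share. Only reference tables of another build than hg19 were at hand, so gene lists, markers, motifs and sequences were not used, and the cell type was not checked against marker genes. A further table of intervals and 15 samples were not analysed here. Alternatives were lists of equal length, other overlaps and score limits, and leaving out each library.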

Additional observations from a re-analysis of the deposited data

How the results depend on the processing

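Of 180 alternatives over 6 results, 153 stayed within 1.5 times the main count or within the interval of the main share. With all ATAC-seq lists cut to equal length the regions numbered 1548, with H3K27ac in both 451Lu lists at 18.3% and in both WM983B lists at 7.95%, 36 runs of 3 or more, H3K9me3 in both parental lists at 9.43% and 39.4% lower in resistant cells. With 50% of a region covered in each 451Lu library there were 72 regions, 0 runs, 0% with H3K27ac in both WM983B lists and 58.3% lower in resistant cells. Runs numbered 0 among regions called in any 451Lu library and 0 at 5 or more in a row. H3K27ac in both 451Lu lists was 1.06% where a peak had to cover 50% of the region and 15.1% within 1 kb. In both WM983B lists it was 0% with no WM983B peak within 1 kb, 0% where a peak had to cover 50%, 1.91% within 1 kb and 0% with H3K27ac lists of equal length. H3K9me3 in both parental lists, 12.8% in all, was 7.45% at a false discovery rate under 0.01, 9.79% where an island had to cover 50%, and, chosen after seeing the data, 7.09% without windows of high input and 8.53% without chromosome 3. The causes were not tested.

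Leaving out each library gave 469 to 566 regions, most without shp150 replicate 2. H3K27ac in both 451Lu lists was 7.69 to 9.14% and in both WM983B lists 0.177 to 0.551%. Runs numbered 7 to 9, H3K9me3 in both parental lists was 11.7 to 13.0%, and 50.2 to 62.0% were lower in resistant cells, where leaving out a resistant or parental library asks for fewer comparisons. With the replicate number as a block, that is resistant below parental cells in both pairs of the same number, 58.1% were lower, against 32.6% of the regions constant in 451Lu. This asks for 2 comparisons in place of 4. The deviations of same-numbered libraries had a correlation of 0.0153 over regions. The labels do not state what same-numbered libraries share beyond the number, and this value cannot settle it. No paired analysis was possible because of a lack of ranks in the other results, which are counts of calls. Unknown depth, unequal list settings and 1 H3K27ac list per group limit all of these results.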
